A study of Mus musculus with 19 samples.

Results

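The genes described here encode the proteins of the cytosolic ribosome, followed in single neurons picked by hand from the lateral hypothalamic area of the mouse. A gene was a member when its name had the form Rpl or Rps plus a number, with the endings of the known variants, or was Rpsa, Rplp0, Rplp1 or Rplp2. This took 88 of the 52636 mouse gene rows in the count table, 36 for the small subunit and 52 for the large subunit. Names ending in -ps and the Rps6k kinases were left out. In the GENCODE M21 annotation of GRCm38, 83 members were protein coding and 5 were pseudogenes (Rps3a2, Rps3a3, Rps4l, Rps12l1 and Rpl6l), and the 88 lay on 19 chromosomes. Of the members, 84 passed the filter on low counts in every comparison. The other 4 were Rpl3l, Rpl10l and Rpl39l, which had between 14 and 27 UMIs (unique molecular identifiers, each marking 1 captured RNA molecule) in all classes together, and Rps12l1, which had none.

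The 7 donor mice were males of the Agrp-IRES-Cre x Ai9 genotype, 6 to 8 weeks old, in which AGRP neurons carry a red fluorescent protein. The fluorescent axons marked the borders of the dissected area, and the picked cell bodies did not fluoresce. Every plate had this genotype, and the labels give no treatment. Each of the 19 plates of 96 wells is 1 sample, called a replicate below, and the labels do not say which mouse filled which plate, so p-values over plates measure the spread between plates only. Wells labelled LHA with at least 1000 detected genes were kept (1534 of 1612), and they were sorted into classes by their own RNA. Hcrt neurons (1065 cells) gave 1% or more of their UMIs to Hcrt, which encodes the orexin peptides of arousal, and Pmch neurons (68 cells) gave 1% or more to Pmch, which encodes melanin-concentrating hormone. Cells with neither were split into Gad neurons (327 cells), with at least 5 UMIs of Gad1 and Gad2, the enzymes that make GABA, and cells with fewer (71 cells). The 3 cells over both peptide gates entered no class. Levels are given as CPM, counts per 1000000 UMIs after Hcrt and Pmch were taken out of the total, for the summed cells of a class on a plate with at least 3 such cells.

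Cytosolic ribosomes are built from ribosomal RNA and a set of proteins in near-equal numbers, so their genes are widely expressed and usually move as a group. The messengers of this family begin with a run of pyrimidines, the terminal oligopyrimidine (TOP) tract, through which the mTOR pathway and the protein LARP1 set their translation. In large secretory neurons, which make and export much peptide, ribosomes sit on the stacked rough endoplasmic reticulum long known as Nissl substance. A few members have a paralogue with a similar product, and many have retrocopies, which are copies of the spliced messenger put back into the genome.

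The start of the messenger is shown first because the family is known for its TOP tract, though most annotated starts here did not show one. RefSeq gave start windows on GRCm38.p6 for 63 of the 88 members (75 entries). A C at the annotated start followed by at least 4 C or T, read on the transcribed strand only, was found in 17.3% of these entries and in 2.50% of all 32851 entries. Within 3 bases of the start the shares were 34.7% and 11.5%. An annotated start need not be the base where transcription begins, and the match is a description of these letters alone. The windows below run from 5 bases before the start to 20 from it, with the tract in capitals. Rps27, Rpl14 and Rpl15 hold one and were picked to show it. Rplp0 and Rpl10, whose levels are described below in every class, have none at the RefSeq start.
Rps27 (chr3:90213629-90213653, minus strand): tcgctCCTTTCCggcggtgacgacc
Rpl14 (chr9:120571512-120571536, plus strand): tctctCTTCTCgctgagcgccgcca
Rpl15 (chr14:18270967-18270991, minus strand): gccttCTTCCTTTCCTCTggcggca
Rplp0 (chr5:115559462-115559486, plus strand): ttcgaggaccgcctggttctcctat
Rpl10 (chrX:74270811-74270835, plus strand): tggaagataggccgcctatataagg

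Pairs of members with similar sequences are shown next because reads can pass between the closest of them. Over 784 aligned bases, the transcribed pseudogene Rps4l matched the coding sequence of its parent Rps4x at 81.4%. The 3 other retrocopies with UMIs were closer to their parents, Rps3a3 to Rps3a1 at 98.9%, Rps3a2 to Rps3a1 at 99.5% and Rpl6l to Rpl6 at 98.7%. Rpl22 and Rpl22l1, both protein coding, matched at 76.5% over 293 coding bases. Each pair is given as its last 60 bases aligned without a gap, exonic on GRCm38, with the differing bases in capitals. The Rps4 stretch differed at 3 of 60 bases, the Rps3a stretch at 2 and the Rpl22 stretch at 11. For Rps3a1 with Rps3a2 and for Rpl6 with Rpl6l the last 60 aligned bases differed at 0 positions, so those 2 pairs are not printed.
Rps4x (chrX:102185039-102185098, minus strand): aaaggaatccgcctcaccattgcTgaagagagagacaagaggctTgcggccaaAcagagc
Rps4l (chr6:148355433-148355492, plus strand): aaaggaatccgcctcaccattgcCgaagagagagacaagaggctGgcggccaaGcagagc
Rps3a1 (chr3:86137989-86138048, minus strand): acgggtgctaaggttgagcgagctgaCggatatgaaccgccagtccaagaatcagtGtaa
Rps3a3 (chr13:108671338-108671397, plus strand): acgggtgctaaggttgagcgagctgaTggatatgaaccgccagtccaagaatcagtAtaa
Rpl22 (chr4:152332288-152332347, plus strand): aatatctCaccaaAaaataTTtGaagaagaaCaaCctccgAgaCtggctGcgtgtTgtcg
Rpl22l1 (chr3:28807195-28807254, plus strand): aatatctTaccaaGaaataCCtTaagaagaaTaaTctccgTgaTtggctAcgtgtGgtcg
How reads that match 2 genes were assigned is not given in the sources used here, so the levels of Rps4l, Rps3a2, Rps3a3 and Rpl6l and of their parents are uncertain.

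8 wells were set apart by a rule and touch 1 class. The rule took kept wells with fewer than 10 UMIs of 8 pan-neuronal genes on plates with no well labelled qRNA. The kind of plate and the low pan-neuronal counts of these wells therefore follow from the rule. The 8 wells lie on replicates 14 and 19, the 2 plates of 19 with no well labelled qRNA (each of the other 17 has 4). They sit in plate rows A, B, E and F of column 4 and in rows C, D, G and H of column 5. All 8 are labelled LHA and fell in the class with neither peptide and little Gad. They gave 9.63% to 13.9% of UMIs to ribosomal protein genes and had 2 to 7 UMIs of 8 pan-neuronal genes, where the other 63 cells of the class gave 1.67% to 7.11% and had 24 to 937. Over all 1526 other kept LHA wells the share reached at most 9.30%. Pan-neuronal UMIs in those wells ran from 2 to 2838 (median 304), so a count as low as 2 also occurred outside the 8. The 68 wells labelled qRNA, whose contents are not stated, had a median share of 11.8% and a median of 4 pan-neuronal UMIs. The counts, shares and named members of that class are given with and without the 8 wells, and its paralogue shares and orders of levels without them. The wells labelled ERCC or empty had a median of 3 ribosomal protein UMIs, against 1192 in the other kept LHA wells.

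The classes were gated on Hcrt, Pmch, Gad1 and Gad2, so the marker that names a class follows from its gate. The pan-neuronal genes and Slc17a6 entered no class gate. Summed pan-neuronal genes ran from 7120.1 to 12067 CPM over plates in Hcrt neurons, 10835 to 15701 in Pmch neurons, 6839 to 10048 in Gad neurons and, without the 8 wells, 6146 to 11785 in the last class. Pmch neurons also carried Gad1, at 309.8 to 889 CPM. In the last class Slc17a6, the vesicular glutamate transporter, was at 165 to 514 CPM without the 8 wells and 0 to 514 CPM with them, and with them the lowest plate of its pan-neuronal sum was at 185 CPM. The median cell had 39061 UMIs outside both peptides in the Hcrt class, 48668 in the Pmch class, 24446 in the Gad class and 24898 in the last, and the LHA wells of a plate summed to 1835746 to 5070306 counts. Hcrt itself made up a median of 13.5% of UMIs in Hcrt neurons and 0.184% in Gad neurons, a direction that the 1% gate fixes.

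Ribosomal protein genes together took a similar share of the non-peptide UMIs in each neuron class, and Hcrt neurons were highest on most plates. The share was 3.64% ± 0.398 (SD, n = 19 plates) in Hcrt neurons, 3.38% ± 0.483 (SD, n = 16 plates) in Gad neurons and 3.21% ± 0.547 (SD, n = 13 plates) in Pmch neurons. In cells with neither peptide and little Gad it was 4.26% ± 3.11 (SD, n = 10 plates), and 2.97% ± 0.608 (SD, n = 9 plates) without the 8 wells. Within plates, Hcrt neurons exceeded Gad neurons on 14 of 16 plates, by 0.260 percentage points on average (SD of the plate differences 0.200), and Pmch neurons on 12 of 13 plates, by 0.387 (SD 0.230). They exceeded the last class on 8 of 9 plates without the 8 wells, by 0.669 (SD 0.523). With them they did so on 7 of 10, and the mean difference turned to -0.594 (SD 2.94). These are descriptions with no test, since the members were chosen with results known.

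The plates overlapped widely. Plate shares ran from 2.65% to 4.12% in Hcrt neurons, 2.204% to 4.06% in Gad neurons, 2.16% to 4.05% in Pmch neurons and 2.18% to 4.35% in the last class without the 8 wells. Replicate 10 was the lowest plate for Hcrt, Gad and Pmch neurons alike. With totals that keep Hcrt and Pmch, the shares of the Hcrt and Pmch classes were 3.15% and 2.64%, because the peptides then count in the total. Over single cells the middle 50% of Hcrt neurons lay between 3.13% and 4.08%, and of Gad neurons between 2.95% and 4.001%. The share had a Spearman correlation with a cell's depth of -0.01 over 1065 Hcrt neurons and 0.02 over 327 Gad neurons, as a description of cells that share plates. Over 68 Pmch neurons it was 0.10, and over 63 cells of the last class without the 8 wells -0.18. Within single plates of at least 10 cells it ran from -0.24 to 0.42 in Hcrt neurons (median 0.14, 19 plates). In Gad neurons it ran from -0.30 to 0.62 (median 0.04, 13 plates).

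**Figure D1:**
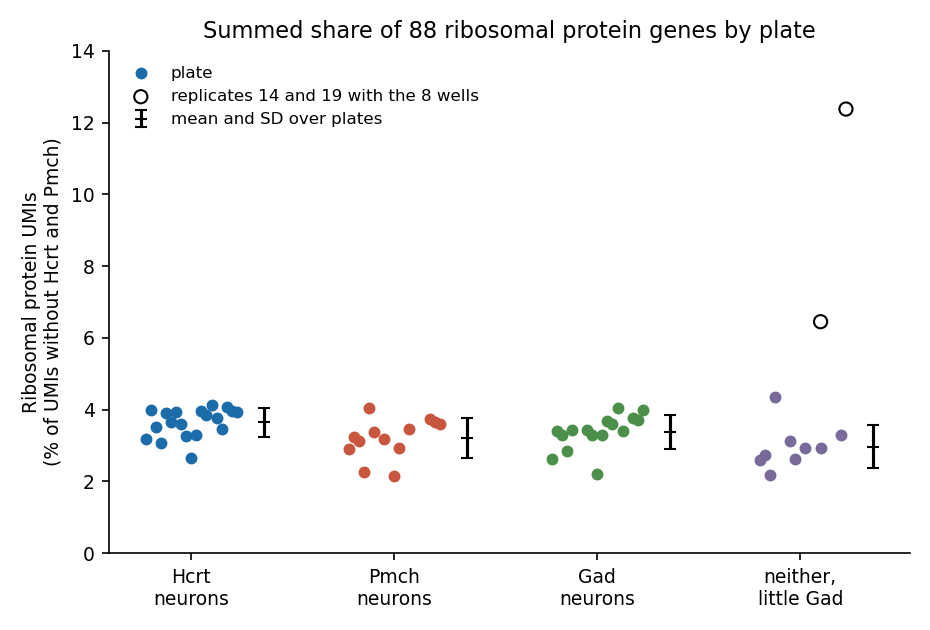
The y axis gives the summed UMIs of the 88 ribosomal protein genes as a percent of UMIs without Hcrt and Pmch, and each point is 1 plate with at least 3 cells of the class on the x axis, with the mean and SD beside it. The neuron classes lie between 2.16% and 4.35%, and the open circles, which are replicates 14 and 19 with the 8 wells, lie above them.

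Levels of single members spanned a wide range. In Hcrt neurons the mean level of the 84 tested members ran from 12.4 to 2173 CPM with a median of 292, not corrected for length. Over all kept wells, 5 members (Rpl3, Rpl8, Rplp1, Rpl14 and Rpl19) held 20.3% of the family's UMIs. Rpl3 was highest in Hcrt neurons at 2173 CPM, with Rpl8 at 1471 and Rplp1, an acidic protein of the ribosomal stalk, at 1359. Per kilobase of annotated exon the order of these turned, with Rplp1 at 2724, Rpl8 at 1082 and Rpl3 at 684. Each UMI marks 1 molecule, so the CPM order is the order of captured molecules. Both Rpl3 and Rpl8 lie close to the site where peptide bonds form. The X chromosome carried 4 members, among them Rpl10 and Rps4x, and chromosome 7 carried 15.

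Hcrt neurons and Gad neurons were compared to ask whether the orexin neurons carry more or less ribosomal protein messenger than the GABA neurons beside them. On totals without the peptides, 20 of the 84 tested members were higher and 4 were lower in Hcrt neurons at an adjusted p under 0.05 (edgeR quasi-likelihood test with plate as block, Benjamini-Hochberg adjustment over 13061 genes). Of all genes tested, 11.9% were higher and 24.7% lower, so the members' 23.8% higher lies above the background and their 4.76% lower lies below it. The median log2 fold change was 0.05 against -0.21 for all genes. Of the 20 higher members, 8 were among the 35 tested genes named Rps or Rpsa and 12 among the 49 of the large subunit.

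How many members passed depended on the scaling. With TMM factors 71 were higher and 1 lower (background 20.8% and 14.1%), with DESeq2 53 and 2 (background 17.8% and 19.3%), and per ERCC spike-in count 83 and 0 (background 55.2% and 6.21%). With totals that keep the peptides 7 were higher and 39 lower (background 8.26% and 37.1%), and against the summed counts of the members themselves 11 were higher and 10 lower. The background in the last of these was 9.74% and 30.0%. Under those 5 scalings the median of all genes was 0.06, -0.05, 0.72, -0.42 and -0.31 on the log2 scale, against -0.21 on totals without the peptides. A change of library size moves all genes by nearly the same amount, so the members keep nearly the same distance from the median gene by construction, and that distance was no test of the scaling. ERCC spike-ins are RNAs added to the wells, so that scaling compares RNA per spike-in.

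**Figure D2:**
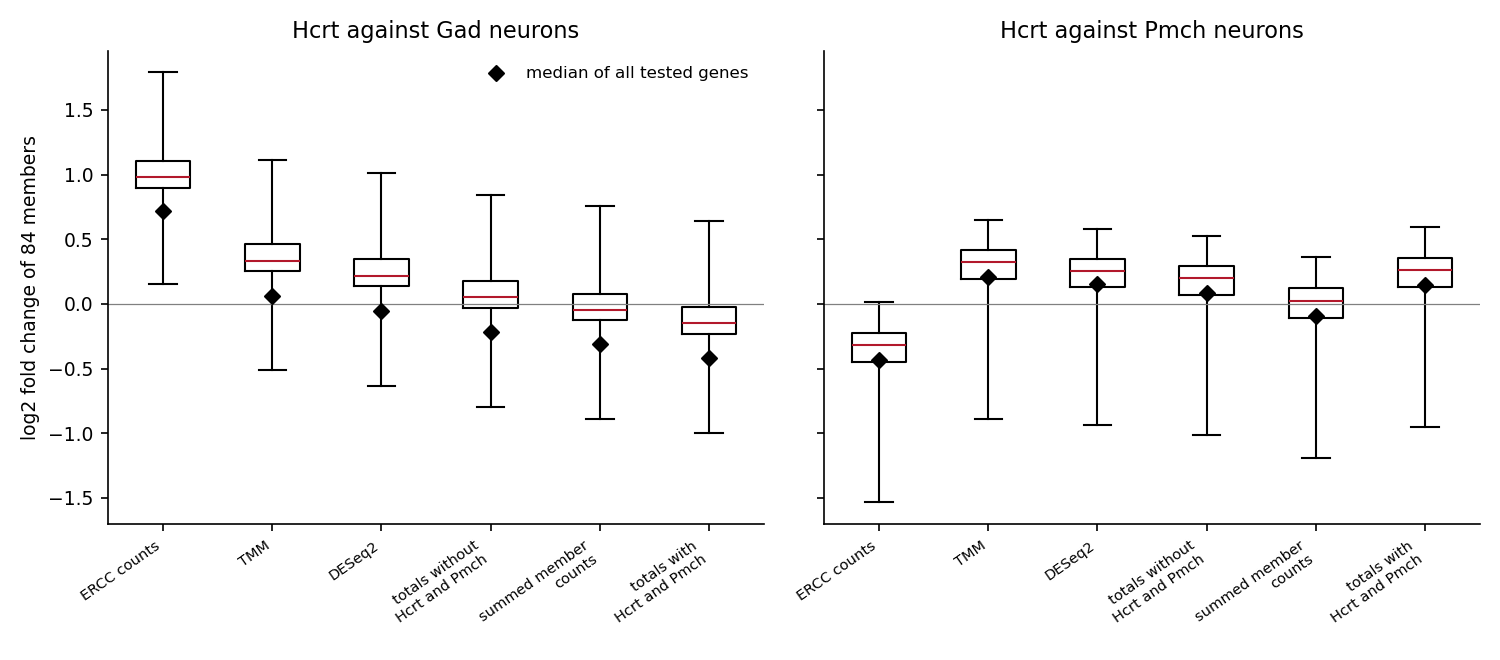
The y axis is the log2 fold change of the 84 tested members in Hcrt against Gad neurons (left) and against Pmch neurons (right), for 6 library sizes on the x axis. Boxes hold the middle 50% with the median in red, whiskers reach the extremes, and diamonds mark the median of all tested genes, which a change of library size shifts by nearly the same amount as the members.

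Rplp0, the base of the stalk that recruits elongation factors, showed the clearest difference. Its lowest, median and highest plates were 599, 779.6 and 898 CPM in Hcrt neurons and 387, 455 and 542 in Gad neurons. The plates of the 2 classes did not overlap, and Hcrt neurons were higher on 16 of 16 (log2 fold change 0.71, SE 0.06, adjusted p = 5.1e-15). Its stalk partners did not pass: Rplp1 was at 844, 1379.9 and 1950.0 CPM in Hcrt neurons and 706, 1364 and 2423 in Gad neurons (log2 fold change -0.02, SE 0.05, adjusted p = 0.73), and Rplp2 had a log2 fold change of -0.06 (SE 0.07, adjusted p = 0.51). With TMM factors both rose (0.27 and 0.22, adjusted p = 0.00012 and 0.016), where Rplp0 stood at 0.99.

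Rps27l, a paralogue of Rps27 known as a target of p53, had the largest fold change among the higher members. It stood at 53.0, 75.3 and 119.8 CPM in Hcrt neurons and 0, 45.6 and 91.7 in Gad neurons, with overlapping plates and Hcrt neurons higher on 15 of 16 (log2 fold change 0.84, SE 0.16, adjusted p = 1.6e-05). Rps27 itself, a zinc-finger protein of the small subunit, was lower in Hcrt neurons, at 252, 401 and 524 against 249, 445 and 715 CPM (log2 fold change -0.19, SE 0.06, adjusted p = 0.013). That call was lost with TMM factors (0.09, adjusted p = 0.86), with DESeq2 (-0.03, adjusted p = 0.71), without replicate 14 (-0.16, adjusted p = 0.053), without the filter (adjusted p = 0.088) and without the plate as a block (adjusted p = 0.057). Per ERCC count Rps27 was higher in Hcrt neurons (0.74, adjusted p = 8.2e-11).

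The other 4 of the 6 largest higher changes lay on both subunits. Rpl41, whose product is a very short basic peptide, was at 345, 544 and 736 CPM against 207, 354 and 524 (log2 fold change 0.54, SE 0.06, adjusted p = 8.6e-11). Rps20, a protein of the small subunit's head, was at 173, 242 and 408 CPM against 118, 163 and 255 (log2 fold change 0.53, SE 0.08, adjusted p = 3.2e-07). Rpl10, which joins the large subunit late in its maturation, was at 322, 619 and 791 CPM against 125, 476 and 701 (log2 fold change 0.43, SE 0.07, adjusted p = 3.1e-07). The plates overlapped for these 3 and for Rps9, another small-subunit protein (log2 fold change 0.43, SE 0.06, adjusted p = 5.1e-08), yet all 4 were higher in Hcrt neurons on 16 of 16 plates. Rpl3 was the most abundant of the higher members, at 1802, 2318 and 2551 against 1409, 1728 and 2129 CPM (log2 fold change 0.32, SE 0.04, adjusted p = 4.8e-09), also on 16 of 16. The 14 higher members outside the first 6 had log2 fold changes of 0.14 to 0.35, and the 60 that did not pass lay between -0.21 and 0.54. Rpl10, Rpl3, Rpl41, Rplp0, Rps20, Rps27l and Rps9 were the 7 members higher at an adjusted p under 0.05 under all 6 (totals with and without the peptides, TMM, DESeq2, ERCC and the summed members).

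The lower members were led by Rps4l and Rpl22. Rps4l, the transcribed retrocopy of Rps4x, was at 46.5, 73.3 and 97.9 CPM in Hcrt neurons and 0, 128 and 209.6 in Gad neurons and lower on 15 of 16 plates (log2 fold change -0.79, SE 0.13, adjusted p = 7.3e-07). Its parent Rps4x did not pass (log2 fold change 0.02, SE 0.05, adjusted p = 0.84). Rpl22, an RNA-binding protein on the outside of the large subunit, was at 35.7, 58.5 and 83.7 against 42.2, 84.9 and 127 CPM and lower on 13 of 16 plates (log2 fold change -0.52, SE 0.14, adjusted p = 0.0019). Its paralogue Rpl22l1 did not pass (log2 fold change -0.03, SE 0.06, adjusted p = 0.75). Per ERCC count both signs turned, with Rps4l at 0.15 and Rpl22 at 0.42, and with TMM factors Rpl22 no longer passed (-0.24, adjusted p = 0.19). Rps16, a small-subunit protein at the decoding side, was also lower (log2 fold change -0.22, SE 0.07, adjusted p = 0.013) but stood at 0.06 with TMM factors and 0.71 per ERCC count, and the call was also lost with DESeq2 (adjusted p = 0.48) and without the filter (adjusted p = 0.071). Rpsa, the small-subunit protein also known as the laminin receptor, Rps27a, which is made as a fusion with ubiquitin, Rpl7, Rpl7l1, Rpl8 and Rpl39 had log2 fold changes between -0.10 and 0.20, and of these only Rpl7 passed (log2 fold change 0.20, SE 0.06, adjusted p = 0.0086). The Rpl7 call was lost on totals with the peptides (-0.003, adjusted p = 0.98), against the summed members (0.10, adjusted p = 0.24) and without the plate as a block (adjusted p = 0.071).

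**Figure D3:**
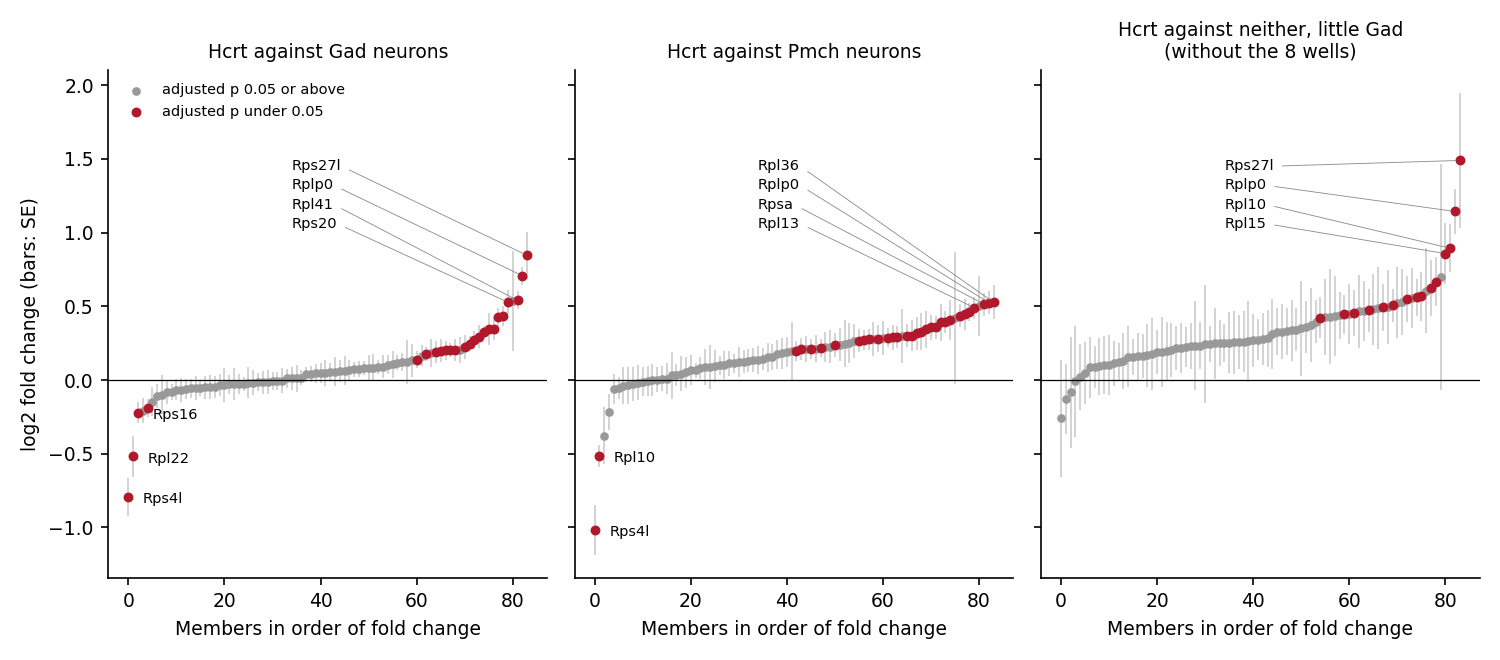
Each point is 1 tested member, placed by rank on the x axis, with its log2 fold change and SE on the y axis; red points had an adjusted p under 0.05. Rplp0 and Rps27l lie among the highest members in the left and right panels, and Rps4l is the lowest in the first 2 panels.

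Other marker groups were counted in the same comparison. Of 12 tested immediate early genes, which respond to activity and to dissociation, 5 were higher and 2 lower in Hcrt neurons, and of 8 oligodendrocyte markers 4 were higher and 0 lower. The background for these counts and for the pan-neuronal ones is 11.9% higher and 24.7% lower. Summed immediate early genes were at 666 to 1058 CPM in Hcrt neurons and 285 to 802 in Gad neurons. Summed oligodendrocyte markers, none of the 8 at 0 in either class, were at 42.9 to 1880.2 CPM in Hcrt neurons and 41.4 to 1002 in Gad neurons. Their median plate was lower in Hcrt neurons, at 69.8 CPM against 96.4 in Gad neurons. Of 8 pan-neuronal genes 5 were higher and 3 lower, the lower ones led by Rbfox3 (log2 fold change -2.50, SE 0.13, adjusted p = 5.7e-24) and Syt1 (log2 fold change -1.79, SE 0.08, adjusted p = 7.4e-28), and the median cell gave 2.51% of its UMIs to mitochondrial genes in the Hcrt class and 2.91% in the Gad class. Their part in the result was not tested. With every cell thinned to 18000 UMIs, 18 of 83 members were higher and 4 lower (background 11.1% and 23.9%). In wells that passed a gate on pan-neuronal genes the counts were 20 and 4 (background 11.8% and 24.9%).

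Against Pmch neurons, the other large peptide population of the area, most differences again lay on the side of Hcrt neurons. Of 84 tested members, 29 were higher and 2 lower in Hcrt neurons (edgeR, 13 plates, 756 and 61 cells), where 14% of all 10926 genes tested were higher and 13.4% lower. The median was 0.20 against 0.08 for all genes. TMM factors gave 54 higher and 2 lower (background 19.2% and 10.9%), DESeq2 47 and 2 (background 19% and 13.6%), and totals with the peptides 44 and 2 (background 16.3% and 11.9%). The summed counts of the members gave 7 higher and 5 lower (Rpl10, Rpl22, Rpl29, Rps4l and Rps4x), where the background was 9.88% and 18.8%. Per ERCC count the direction of the family turned, with 0 higher and 53 lower (background 5.86% and 34.5%) and a median of all genes of -0.43. With every cell thinned to 18000 UMIs 25 of 83 were higher and 2 lower (background 10.7% and 14.1%), and without the plate as a block 14 and 2 (background 13.7% and 18.8%).

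The 6 largest higher changes again lay on both subunits. Rpl36, a large-subunit protein, was at 166, 239 and 285 CPM in Hcrt neurons and 72.8, 171 and 254 in Pmch neurons (log2 fold change 0.53, SE 0.12, adjusted p = 0.00019). Rplp0 was at 599, 726 and 898 against 257, 544 and 698 CPM (log2 fold change 0.53, SE 0.08, adjusted p = 3.9e-08). Rpsa was at 499, 703 and 774 against 285, 468 and 673 CPM (log2 fold change 0.51, SE 0.08, adjusted p = 1.7e-07). Plates of the 2 classes overlapped for all 3, yet each was higher in Hcrt neurons on 13 of 13 plates, as were Rpl13 (log2 fold change 0.49, SE 0.07, adjusted p = 1.4e-07) and Rpl8 (log2 fold change 0.46, SE 0.06, adjusted p = 4e-09). Rps20 was higher on 12 of 13 (log2 fold change 0.45, SE 0.11, adjusted p = 0.00057). None of these 6 passed per ERCC count, where Rpl36, Rplp0 and Rpsa had log2 fold changes of 0.008, 0.01 and 0.003, and Rpl13, Rpl8 and Rps20 of -0.02, -0.05 and -0.07. The Rps20 call was also lost in thinned cells (adjusted p = 0.061) and against the summed members (adjusted p = 0.052). The 23 other higher members had log2 fold changes of 0.20 to 0.44, among them Rpl22l1 (log2 fold change 0.44, SE 0.08, adjusted p = 5.1e-06) and Rpl7 (log2 fold change 0.24, SE 0.08, adjusted p = 0.018), whose signs turn per ERCC count. The Rpl7 call was lost without the filter (adjusted p = 0.086), with at least 5 cells (adjusted p = 0.051) and against the summed members (adjusted p = 0.67). The 53 that did not pass lay between -0.38 and 0.50. By subunit, 11 of 35 small-subunit and 18 of 49 large-subunit genes were higher.

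Rpl10 and Rps4l were the 2 lower members, and both stayed lower at an adjusted p under 0.05 in DESeq2 and under every scaling tried, ERCC included. Rpl10 was at 322, 612 and 791 CPM in Hcrt neurons and 384, 931 and 1257 in Pmch neurons, and lower on 12 of 13 plates (log2 fold change -0.52, SE 0.08, adjusted p = 1.1e-07). Rps4l was at 46.5, 71.5 and 89.9 against 55.0, 148 and 296 CPM, and lower on 11 of 13 (log2 fold change -1.01, SE 0.17, adjusted p = 1.5e-06). In Hcrt neurons Rpl10 thus stood above its level in Gad neurons and below that in Pmch neurons. Rps27l (log2 fold change 0.50, SE 0.20, adjusted p = 0.058) and Rpl22 (log2 fold change -0.38, SE 0.19, adjusted p = 0.15) did not pass here, nor did Rplp1, Rplp2, Rps27a, Rps27, Rpl3, Rpl39, Rpl7l1 or Rps4x. Of 12 tested immediate early genes 7 were higher and 2 lower in Hcrt than in Pmch neurons, and of 7 tested oligodendrocyte markers 6 were higher and 0 lower. The background for these counts and for the pan-neuronal ones is 14% higher and 13.4% lower. Summed immediate early genes were at 149 to 695 CPM in Pmch neurons, with Ier2 and Atf3 at 0, and oligodendrocyte markers at 12.2 to 94.4 CPM, with Mog and Ermn at 0. Of 8 pan-neuronal genes 1 was higher and 7 lower in Hcrt neurons, the lower ones led by Syt1 (log2 fold change -1.73, SE 0.15, adjusted p = 9.5e-08) and Rbfox3 (log2 fold change -1.59, SE 0.20, adjusted p = 1.6e-09), and the median cell of the Pmch class gave 1.56% of its UMIs to mitochondrial genes, against 2.51% in the Hcrt class. Their part in the result was not tested.

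For cells with neither peptide and little Gad, the answer turned on the 8 wells. With them, no member differed from Hcrt neurons (edgeR, 0 higher and 0 lower of 84 on 10 plates, 2 at an unadjusted p under 0.05, and 1 higher, Rpl22l1, and 0 lower with DESeq2), where 2.92% of 11576 genes were higher and 2.99% lower. The background with DESeq2 was 3.55% and 4.47%. TMM factors gave 20 higher and 0 lower (background 12.5% and 2.40%) and ERCC counts 80 and 0 (background 35.3% and 2.14%). Without the 8 wells, 15 members were higher in Hcrt neurons and 0 lower on 9 plates (31 at an unadjusted p under 0.05), where 4.13% of 10753 genes were higher and 4.23% lower. The median then was 0.28 against -0.04 for all genes. Adding TMM factors gave 62 higher and 0 lower (background 10.2% and 2.50%). Rpl22l1, the Rpl22 paralogue, was among the 15, higher on 9 of 9 plates (log2 fold change 0.45, SE 0.15, adjusted p = 0.041). With the wells it did not pass (0.55, adjusted p = 0.13, higher on 10 of 10). The wells of the neuron gate, which leaves those 8 out, gave 14 higher and 0 lower (background 4.10% and 4.25%). Leaving out the whole of replicate 14 gave 1 higher and 0 lower (background 2.44% and 2.1%), and of replicate 19 gave 5 and 0 (background 3.80% and 3.84%).

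Rplp0, Rpl10, Rps27l and Rpl41, which were among the members that led against Gad neurons, passed here as well once the 8 wells were left out. Without the 8 wells, Rplp0 was at 640.3, 780.5 and 898 CPM in Hcrt neurons and 231, 358 and 437 in the last class, with no overlap (log2 fold change 1.14, SE 0.15, adjusted p = 2.7e-11). Rpl10 was at 484, 627 and 749 against 187, 363 and 497 CPM and higher on 9 of 9 plates (log2 fold change 0.89, SE 0.16, adjusted p = 2.1e-06). Rps27l was higher on 8 of 9 (log2 fold change 1.49, SE 0.46, adjusted p = 0.017), with 1 plate of the last class at 0. Rpl15, a large-subunit protein, and Rpl41 were higher on 9 of 9, with log2 fold changes of 0.86 and 0.67 (SE 0.21 and 0.16). Hcrt neurons enter all 3 of these comparisons, so the same Hcrt plates stand behind each, and Rpl15 and Rpl41 were named after their values were seen. Of the 2 stalk partners, Rplp1 had a log2 fold change of 0.16 and Rplp2 of 0.20, and neither passed (adjusted p = 0.55 and 0.63). With the 8 wells none of these passed: Rplp0, Rpl10, Rps27l, Rpl15 and Rpl41 had log2 fold changes of 0.59, 0.43, 0.71, 0.47 and 0.30 (adjusted p = 0.39, 0.35, 0.43, 0.72 and 0.59), and Rplp1 and Rplp2 of -0.16 and -0.01. Summed oligodendrocyte markers reached 10401 CPM on 1 plate of the last class, and their part in the result was not tested.

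Gad neurons and the last class did not differ past the threshold on any member on these totals. With the 8 wells edgeR called 0 of 84 in either direction (3 at an unadjusted p under 0.05, and 0 with DESeq2), where 0.785% of 8537 genes were higher and 0.504% lower. Without them it called 0 of 83 (21 at an unadjusted p under 0.05, and 1 higher, Rpl22l1, once TMM factors were added), where 1.22% of 7695 genes were higher and 0.572% lower. With DESeq2 on all wells the background was 1.30% and 0.691%, and with TMM factors without the 8 wells 1.48% and 0.546%. The median moved from -0.05 to 0.26 when the wells were left out, and that of all genes from 0.17 to 0.13. The summed share was higher in Gad neurons on 8 of 9 plates without the 8 wells, by 0.448 percentage points (SD 0.570), and on 7 of 10 with them, where the mean difference turned to -0.787 (SD 2.85). Rplp0 had a log2 fold change of 0.35 there (SE 0.17, adjusted p = 0.56) and Rps4l one of 0.84 (SE 0.34, adjusted p = 0.33), on few cells, and with the wells the 2 stood at -0.18 and 1.21 (adjusted p = 0.93 and 0.19).

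Set side by side without the 8 wells, the 4 classes put single members in different orders. By median plate, Rplp0 ran from Hcrt neurons (761 CPM) through Pmch (544) and Gad neurons (455) to the last class (358). For Rpl10 the order was Pmch (931), Hcrt (612), Gad (476) and the last class (363). Neighbouring classes overlapped over plates in both orders. For Rps4l the Pmch (148) and Gad neurons (128) were high and Hcrt neurons (71.5) and the last class (67.1) low, while Pmch and Gad neurons were not tested against each other.

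**Figure D4:**
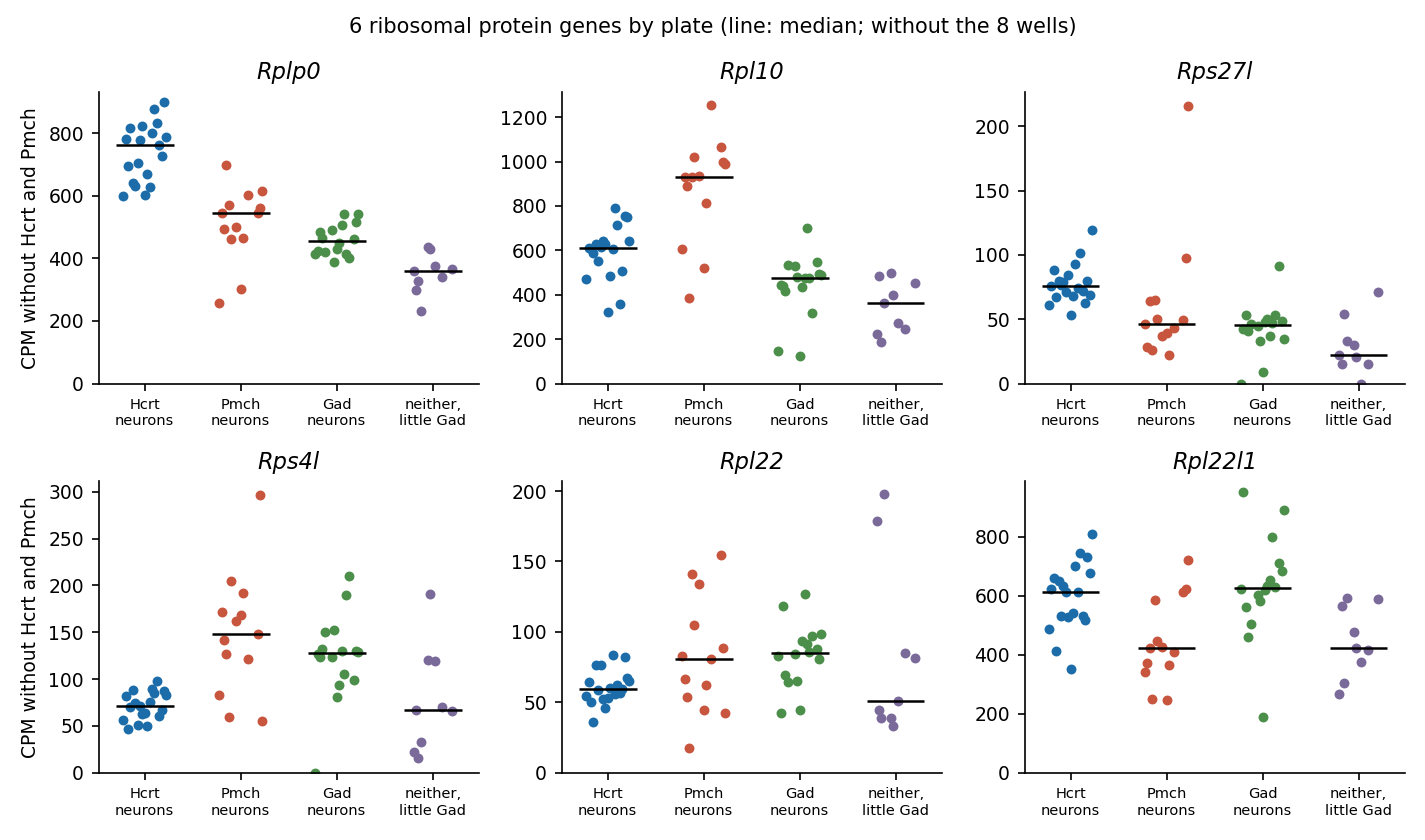
The y axes give CPM without Hcrt and Pmch for 6 members, and each point is 1 plate, without the 8 wells, with a line at the median of the class on the x axis. Rplp0 is highest in Hcrt neurons, Rpl10 in Pmch neurons, and Rps4l is low in Hcrt neurons on every plate, at 97.9 CPM or less.

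Paralogue pairs shifted between classes as well. In Hcrt neurons Rpl22l1 stood at a mean of 598 CPM and Rpl22 at 61.1 (301 and 20.998 per kilobase of exon), so the paralogue was the more abundant form in these cells. Of the UMIs of both, Rpl22l1 made up 90.6% ± 1.502 (SD, 19 plates) in Hcrt neurons, 87.7% ± 3.49 (16 plates) in Gad neurons and 84.6% ± 5.36 (13 plates) in Pmch neurons, and the Hcrt value was above that of Gad neurons on 15 of 16 plates and above that of Pmch neurons on 11 of 13. Rps27l made up 17.2% ± 2.07 of Rps27 and Rps27l in Hcrt neurons and 8.63% ± 3.97 in Gad neurons, and was above on 15 of 16 plates. In Pmch neurons it made up 14.6% ± 6.46, and the Hcrt value was above that on 10 of 13 plates. Rps4l made up 9.24% ± 1.71 of Rps4x and Rps4l in Hcrt neurons, 14.9% ± 5.71 in Gad neurons and 16.95% ± 6.81 in Pmch neurons, and was below on 15 of 16 and 11 of 13 plates. These shares do not depend on the library size.

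The closest retrocopies differed among themselves. Rps3a2, the nearest to its parent, made up 2.07% ± 0.579 of Rps3a1 and Rps3a2 in Hcrt neurons and 1.44% ± 1.06 in Gad neurons, and was above on 13 and below on 3 of 16 plates, on 94 Rps3a2 UMIs in Gad neurons. Rps3a3 made up 35.7% ± 3.70 of Rps3a1 and Rps3a3 in Hcrt neurons and 35.1% ± 5.48 in Gad neurons, and was above on 9 and below on 7 of 16 plates. Rpl6l made up 6.85% ± 1.22 of Rpl6 and Rpl6l in Hcrt neurons and 7.20% ± 3.30 in Gad neurons, and was above on 11 and below on 5 of 16. Of Rpl7 and its relative Rpl7l1, the latter made up 14.005% ± 2.60 in Hcrt and 16.7% ± 4.17 in Gad neurons, and Hcrt neurons were below on 13 of 16 plates. The paralogues Rpl3l, Rpl10l and Rpl39l, known from muscle and testis, had 25, 12 and 6 UMIs among 46591091 in Hcrt neurons. Rpl3l had 2 UMIs in Pmch neurons and 0 in Gad neurons; a count of 0 allows up to 0.325 CPM there. Rps12l1 had no UMI, which allows up to 0.0644 CPM in Hcrt neurons.

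Other genes of translation were counted in the same fits. Against Gad neurons, Hcrt neurons had 5 higher and 2 lower of 15 genes of elongation and other TOP messengers, 10 higher and 4 lower of 29 initiation factors, 4 higher and 4 lower of 33 ribosome biogenesis genes and 3 higher and 5 lower of 13 mTOR pathway genes. The background for these counts is 11.9% higher and 24.7% lower. Their balance moved with the scaling: in the same order TMM factors gave 10 higher and 0 lower, 17 and 1, 7 and 0, and 3 and 0 (background 20.8% and 14.1%), and the summed members as library size gave 2 and 2, 4 and 7, 2 and 6, and 2 and 7 (background 9.74% and 30.0%). The elongation factors Eef2 (log2 fold change 0.39, SE 0.06, adjusted p = 1.2e-07) and Eef1a1 (log2 fold change 0.36, SE 0.04, adjusted p = 3e-11) were higher on 16 of 16 plates. The initiation factor subunit Eif3d was higher (log2 fold change 0.59, SE 0.12, adjusted p = 3.6e-05), and Eif4h, a helper of the helicase Eif4a, was lower (log2 fold change -0.50, SE 0.08, adjusted p = 2.4e-07). Pabpc1, the poly(A) binding protein, was lower (log2 fold change -0.44, SE 0.17, adjusted p = 0.032), a call lost with TMM factors (-0.16, adjusted p = 0.50). Ribosomal protein relatives outside the name rule had 0 higher and 1 lower of 5, the lower one being Rps27rt, a retrocopy of Rps27 (log2 fold change -0.32, SE 0.11, adjusted p = 0.023), a call also lost with TMM factors. Among biogenesis genes, Ltv1, which helps small subunits mature, was higher (log2 fold change 0.80, SE 0.25, adjusted p = 0.0085) and Polr1a, the large subunit of RNA polymerase I, lower (log2 fold change -0.84, SE 0.25, adjusted p = 0.0060). The mTOR complex gene Rictor (log2 fold change -1.12, SE 0.36, adjusted p = 0.010) and the mTOR inhibitor Tsc1 (log2 fold change -0.91, SE 0.27, adjusted p = 0.0050) were lower, and neither they nor Polr1a passed with TMM factors.

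Against Pmch neurons the counts were 2 higher and 2 lower of 15, 3 higher and 4 lower of 29, 4 higher and 0 lower of 33 and 0 higher and 2 lower of 13 in the same order (background 14% and 13.4%). With TMM factors they were 4 higher and 0 lower, 7 and 1, 6 and 0, and 1 and 2 (background 19.2% and 10.9%), and against the summed members 1 and 5, 3 and 11, 1 and 4, and 0 and 2 (background 9.88% and 18.8%). Eef2 was higher in Hcrt neurons on 13 of 13 plates (log2 fold change 0.73, SE 0.08, adjusted p = 2.7e-12), and the initiation factors Eif1 (log2 fold change 0.63, SE 0.06, adjusted p = 1.4e-13) and Eif1ax (log2 fold change -1.08, SE 0.15, adjusted p = 4e-08) went in opposite directions. The 2 lower mTOR genes were its inhibitor Deptor (log2 fold change -2.11, SE 0.15, adjusted p = 3.6e-19), lower on 13 of 13 plates, and Eif4ebp1, a repressor of cap binding that mTOR switches off (log2 fold change -2.22, SE 0.50, adjusted p = 0.00031). Eif4ebp1 was higher in Hcrt neurons than in Gad neurons (log2 fold change 2.07, SE 0.67, adjusted p = 0.011), at means of 4.64 and 1.05 CPM.

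Mitochondrial ribosomal proteins, which belong to a separate ribosome, gave 9 higher and 17 lower of 77 against Gad neurons and 8 higher and 4 lower of 77 against Pmch neurons, with medians of -0.12 and 0.07. Of all genes tested, 11.9% were higher and 24.7% lower against Gad neurons, and 14% and 13.4% against Pmch neurons. The counts against Gad neurons lie near that background. Their balance also moved with the scaling. With TMM factors 20 were higher and 2 lower against Gad neurons (background 20.8% and 14.1%), and 17 and 1 against Pmch neurons (background 19.2% and 10.9%). Against the summed members these counts were 4 and 28 (background 9.74% and 30.0%), and 3 and 9 (background 9.88% and 18.8%). Mrps6 stood apart within them, higher in Hcrt neurons on 16 of 16 plates against Gad neurons (log2 fold change 1.23, SE 0.10, adjusted p = 7.1e-16) and on 13 of 13 against Pmch neurons (log2 fold change 1.30, SE 0.12, adjusted p = 3.9e-14). Mrpl18 was lower than in Gad neurons on 16 of 16 (log2 fold change -0.81, SE 0.11, adjusted p = 1.3e-08). Against the last class, 1 of the translation genes in these lists passed with the 8 wells, the helicase Eif4a2 (log2 fold change 0.64, SE 0.20, adjusted p = 0.028). Without the 8 wells the higher ones were Eef1a1 (log2 fold change 0.67, SE 0.11, adjusted p = 1.9e-08), Eef1g (log2 fold change 0.57, SE 0.15, adjusted p = 0.0054), Eif1 (log2 fold change 0.43, SE 0.12, adjusted p = 0.0073), Eif4a2 (log2 fold change 0.44, SE 0.12, adjusted p = 0.0053), Polr1d (log2 fold change 0.66, SE 0.22, adjusted p = 0.033) and Mrps6 (log2 fold change 0.64, SE 0.20, adjusted p = 0.025), and Eif4h was lower (log2 fold change -0.60, SE 0.19, adjusted p = 0.024). The background there is 4.13% and 4.23%. Between Gad neurons and that class 0 passed with the wells, and without them 1, the RNA polymerase subunit Polr1d (log2 fold change 0.81, SE 0.22, adjusted p = 0.024), where the background is 1.22% and 0.572%.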

How the data were processed

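Single cells in 19 plates were profiled with Smart-SCRB, a plate-based chemistry with UMIs. The authors deposited 1 table of raw counts per gene and well and a table of well annotations, whose percent of ERCC counts was not used. Reads were processed against GRCm38 with bcl2fastq 2.20, cutadapt 2.1.0, STAR and STARsolo 2.7.5c, Seurat 2.3.4 and R 3.4.3, per the submitters' processing notes. Wells were sorted into classes by their own counts, and counts were summed per plate and class (at least 3 cells).

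Genes that passed filterByExpr were tested with edgeR 4.0.16 in R 4.3.3 (quasi-likelihood, plate as block, totals without Hcrt and Pmch, normalization factors of 1, Benjamini-Hochberg adjustment over all genes tested). The script was tested on simulated data. Alternatives were TMM, DESeq2 1.42.0, ERCC totals, totals with the peptides, no filter, 5 cells, thinning to 18000 UMIs, a neuron gate, no block and leaving out each plate. Leaving out the 8 wells and scaling to the summed members were chosen after seeing the data. Pairs were aligned with Biopython 1.88. Intervals and floors cover counting error only.

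Named members were, per comparison, the 6 largest changes past the threshold in each direction, the 3 with the highest mean CPM, the stalk genes, Rps27a, Rpsa and 7 paralogue pairs, plus up to 3 genes of each other list. Members and lists were chosen with earlier results of these data known. Gene rows named -ps (217, with 3.65% as many UMIs as the members) were not counted as members.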

Additional observations from a re-analysis of the deposited data

Results flagged for a closer look

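The summed share of ribosomal protein genes in cells with neither peptide and little Gad was 12.4% on replicate 19, far above the other 9 plates of that class. It was picked out because its gap to the next plate was large against the range of the class. 2 groups of plates were tested in this way, and chance alone picks out about 1 in 20. The cells of that class on replicate 19 are 4 of the 8 wells with 2 to 7 pan-neuronal UMIs, and without the 8 wells the plates of the class ran from 2.18% to 4.35%.

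Wells labelled qRNA, which enter no comparison, gave 11.5% of their pooled UMIs outside Hcrt and Pmch to the ribosomal protein genes (148314 of 1289866 UMIs in 68 wells). The ERCC and empty wells gave 3.93% pooled (4898 of 124525 UMIs), but 1 well held 4220 of those 4898 UMIs, and the median well gave 1.91%. What the qRNA wells hold is not stated in the labels.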

How the results depend on the processing

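Against Gad neurons, the 20 higher and 4 lower members became 71 and 1 with TMM factors (also without the 8 wells), 53 and 2 with DESeq2, 83 and 0 per ERCC count, 7 and 39 on totals with the peptides and 11 and 10 against the summed members, and without a filter on low counts 2 were lower. Leaving out 1 plate gave 17 to 20 higher and 3 to 5 lower. Against Pmch neurons, 29 and 2 became 54 higher with TMM factors (also without the 8 wells), 47 with DESeq2, 44 with the peptides, 19 without a filter, 14 with at least 5 cells, 7 higher and 5 lower against the summed members and 0 and 53 per ERCC count; 1 plate less gave 25 to 31 and 2. Against cells with neither peptide and little Gad, 0 became 20 with TMM, 1 with DESeq2, 80 per ERCC count, 14 in the neuron gate, 15 without the 8 wells and 62 with TMM added, and 0 to 5 with 1 plate less (1 without replicate 14 and 5 without replicate 19, 0 lower). Gad neurons against that class gave 0 throughout except 1 higher without the 8 wells with TMM, and 0 with 1 plate less. Without the replicate block that pairs the classes of a plate, 14 were higher and 3 lower against Gad, 14 higher against Pmch, and 1 higher and 1 lower against the last class. Of all genes, 1436 of 13061 were then higher and 4235 lower against Gad, 1494 of 10926 higher against Pmch, and 449 of 11576 higher and 1604 lower against the last class. Without a filter 2919 of 36317 genes were lower against Gad and 1628 of 35216 higher against Pmch. With at least 5 cells 986 of 9713 were higher against Pmch.

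Of 586 values for 22 named results, 554 kept direction and side of the threshold, 18 fell under it and 14 turned sign. None of the 8 wells was in the Hcrt, Gad or Pmch class, so leaving them out left these fits unchanged by construction. Those values repeat the main and TMM ones within the 586 and are no test, here and in the counts above. Those 14 were, against Gad neurons, Rps16 (0.062 with TMM, with or without the 8 wells, 0.71 per ERCC count), Rps27 (0.094 likewise, 0.74), Rpl22 (0.42 per ERCC count), Rps4l (0.15) and Rpl7 (-0.0030 with the peptides). Against Pmch neurons they were, per ERCC count, Rpl13 (-0.023), Rpl22l1 (-0.080), Rpl7 (-0.28), Rpl8 (-0.052) and Rps20 (-0.071). The cause was not tested. Shares fell to 3.15% (Hcrt) and 2.64% (Pmch) on totals with the peptides, and that of the last class was 7.83% on plates titled Q8, the mean of replicate 18 (3.28%) and replicate 19 (12.4%, on 4 cells that are all among the 8 wells).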
